A study of Homo sapiens with 6 samples.

Results

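The ABC drug efflux transporters examined here were ABCB1, ABCC1, ABCC2, ABCC3, ABCC4, ABCC5, ABCC10, ABCG2, ABCA1 and ABCB10, 10 genes matched by symbol among the 63241 Ensembl genes of the count tables. They were followed in the wild-type human cell line MDA-MB-231, which was derived from triple-negative breast cancer (TNBC), after 24 h with 5 μM nitidine chloride (NCD) or with 0.1% DMSO, the vehicle in which NCD was dissolved. Each of the 2 groups held 3 libraries of total RNA, and their totals ran from 18223594 to 19410833 counts for DMSO and from 18232169 to 21629653 for NCD. The labels do not state that replicates were separate cultures, so p-values cover the spread between these libraries, and the results stand for 1 cell line at 1 dose and 1 time. For NCD replicates 2 and 3 the free-text description carries another cell line number, while the cell line field of all 6 libraries reads MDA-MB-231.

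ABC transporters are membrane proteins that bind and hydrolyse ATP to move substrates across a membrane. Several of them pump drugs out of tumor cells and are known for multidrug resistance, among them ABCB1 (P-glycoprotein), ABCG2 (breast cancer resistance protein) and the ABCC subfamily of multidrug resistance proteins, which also export glutathione, glucuronide and sulfate conjugates. ABCA1 hands cholesterol and phospholipid to apolipoproteins, and ABCB10 works in the inner mitochondrial membrane of cells that make heme. NCD is a planar cationic plant alkaloid, and whether any of these pumps carries it was not measured here.

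The transcripts of 3 pumps were much lower with NCD, and those of no pump were more than 2-fold higher. ABCC4 was 15.3-fold lower, ABCC1 5.75-fold lower and ABCA1 4.30-fold lower in mean CPM (counts scaled to TMM-adjusted library size). ABCG2 and ABCC10 rose, to 1.78 and 1.74 times their DMSO level. ABCC3, ABCC5 and ABCB10 did not pass the test, ABCC2 was measured with few counts and wide scatter, and ABCB1 had no count in any library. A gene was called where it moved more than 1 log2 unit either way with an adjusted p below 0.05 (edgeR, Benjamini-Hochberg over all 15295 tested genes). Of the 9 tested members 4 met this, ABCC1, ABCC2, ABCC4 and ABCA1, all 4 lower, against 31.0% of all tested genes in either direction, 13.5% higher and 17.5% lower. By adjusted p alone 6 of the 9 changed, 2 higher and 4 lower, against 69.3% of all tested genes, 35.3% higher and 34.1% lower. The 9 had a median log2 fold change of -0.13, and the 15295 had one of 0.04. Values of NCD and DMSO did not overlap for 2 members on the higher side and 4 on the lower side. The lower 4 were ABCC1, ABCC4, ABCA1 and ABCB10, while the values of ABCC2 overlapped. Among all tested genes the shares without overlap were 37.2% higher and 35.3% lower. The share past p alone was thus close to that of all tested genes, and the share called lower was above that of all tested genes. These shares do not allow for gene span. In 10 groups of tested genes by span, 79.2% of the longest, with ABCC1 and ABCC4, were called lower. The share was 46.0% in the group of ABCA1 and 15.6% in that of ABCC2. The call of ABCC2 was also lost in several alternative settings. The part of span in the share called lower was not tested.

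**Figure D1:**
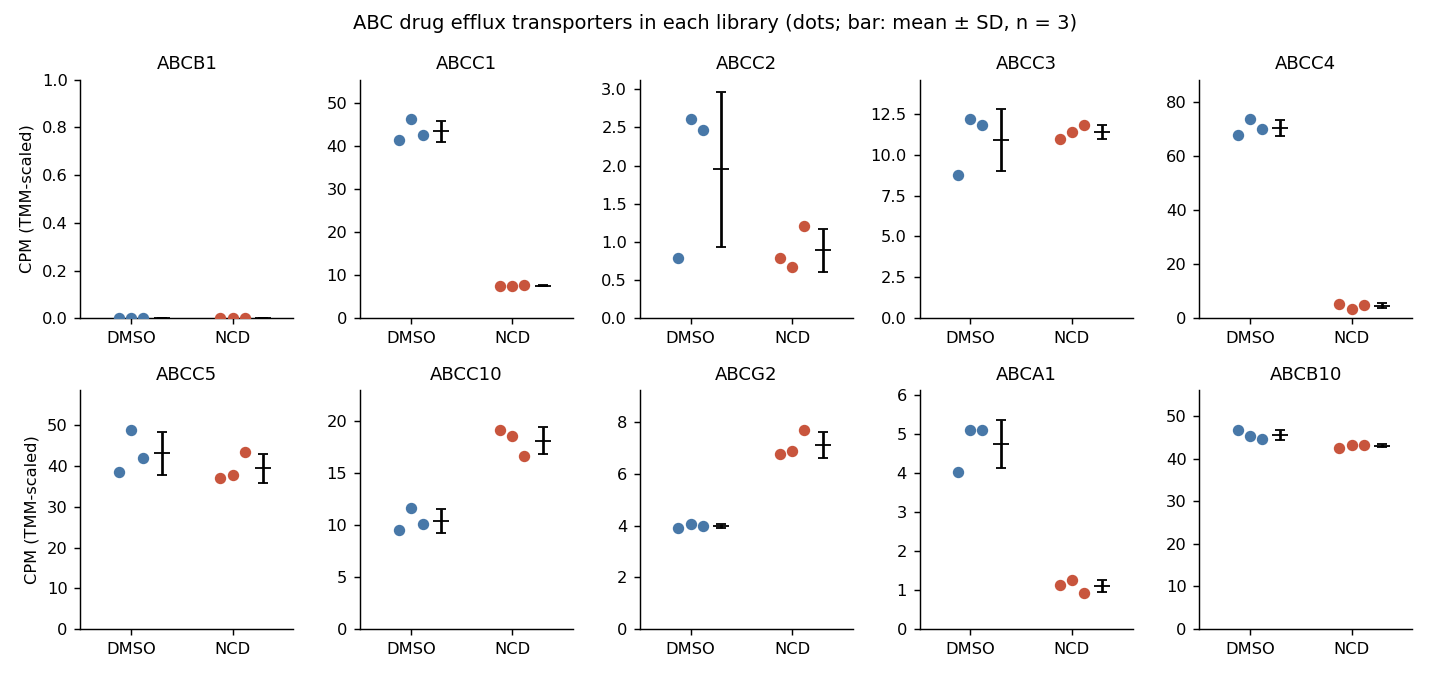
CPM of each of the 10 transporters (vertical axes, each from 0) in the 3 DMSO libraries (blue) and the 3 NCD libraries (red), with the mean and SD of 3 libraries in black. ABCC1, ABCC4 and ABCA1 fall far below their DMSO values, ABCG2 and ABCC10 lie above them, and ABCB1 stays at 0.

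The start regions of 5 members are shown because these genes moved apart: ABCC4 and ABCA1 fell, ABCG2 and ABCC10 rose, and ABCB10 was near its DMSO level. Sequences are from RefSeq (GRCh38.p14), from the 250 bases before a start site, cut to the longest stretch that no GENCODE 29 exon covers, and read 5′ to 3′ on the gene's strand. Capitals mark 6 motifs, searched on both strands. The GC box, bound by Sp1 and its relatives, was searched as GGGCGG. The core of the antioxidant response element, the kind of site that NRF2 binds, was TGACNNNGC. The core of the xenobiotic response element, the site of the aryl hydrocarbon receptor, was GCGTG. The E-box of basic helix-loop-helix factors was CACGTG, and the core promoter's TATA box was TATAAA. The CCAAT box was searched by the letters of its name. Adjoining or overlapping matches run together in capitals.
ABCC4, chr13:95301476-95301701, minus strand: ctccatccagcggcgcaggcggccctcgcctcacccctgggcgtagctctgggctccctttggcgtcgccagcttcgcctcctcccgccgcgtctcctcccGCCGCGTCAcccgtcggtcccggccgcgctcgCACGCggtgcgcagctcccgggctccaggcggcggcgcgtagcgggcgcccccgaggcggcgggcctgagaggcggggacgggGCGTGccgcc
ABCA1, chr9:104928238-104928405, minus strand: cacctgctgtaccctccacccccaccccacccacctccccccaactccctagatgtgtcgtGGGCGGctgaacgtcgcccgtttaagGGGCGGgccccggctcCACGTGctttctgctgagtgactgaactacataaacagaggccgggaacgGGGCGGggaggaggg
ABCG2, chr4:88159025-88159159, minus strand: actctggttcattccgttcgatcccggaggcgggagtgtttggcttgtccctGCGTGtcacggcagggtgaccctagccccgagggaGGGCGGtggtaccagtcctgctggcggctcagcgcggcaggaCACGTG
ABCC10, chr6:43427390-43427540, plus strand: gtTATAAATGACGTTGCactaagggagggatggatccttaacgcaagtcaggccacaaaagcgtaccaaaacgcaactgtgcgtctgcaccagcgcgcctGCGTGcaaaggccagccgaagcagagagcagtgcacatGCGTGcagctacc
ABCB10, chr1:229558708-229558957, minus strand: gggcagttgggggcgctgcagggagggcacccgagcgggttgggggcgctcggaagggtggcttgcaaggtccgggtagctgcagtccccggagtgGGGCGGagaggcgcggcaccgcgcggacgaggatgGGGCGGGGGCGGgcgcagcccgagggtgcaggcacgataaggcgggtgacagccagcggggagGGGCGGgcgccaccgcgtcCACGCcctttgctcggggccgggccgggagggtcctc

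In these stretches ABCB10 held 4 GC boxes, ABCA1 held 3 and ABCG2 held 1, while those of ABCC4 and ABCC10 held none. In the printed stretches this motif was thus held or lacked on both sides of the comparison. On the higher side this depends on which ABCC10 window is printed. RefSeq lists a second start window for ABCC10, not printed, whose stretch outside exons (98 bases) held 2 GC boxes and none of the other motifs. For ABCG2 it lists 5 windows, and the printed stretch is from window 4. The stretches of windows 1 and 3 held none of the 6 motifs. That of window 2 lies within the printed one, and window 5 left no stretch outside exons. The antioxidant response element core was present once in ABCC4, which fell, and once in the printed stretch of ABCC10, which rose. In ABCC10 it directly follows the letters TATAAA, at the end of the stretch that lies away from the start site. The full 250 bases of ABCA1 also held TATAAA, in the part cut away. In ABCB10 a pair of GC boxes adjoin. Over the full 250 bases, 42.6% of all 35116 RefSeq windows held a GC box, 10.9% the antioxidant response element core, 32.2% the xenobiotic response element core, 6.35% the E-box, 10.7% the TATA box and 32.0% the CCAAT box. The table listed 14 windows for 8 of the 10 members, with ABCC1 and ABCC3 unlisted. A match of letters is a description and shows no binding.

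ABCB1 (ENSG00000085563, chromosome 7, 87503633 to 87713323, minus strand, GENCODE 29 on GRCh38), the classical drug pump P-glycoprotein, had 0 counts in all 6 libraries. A count of 0 allows up to 3 counts summed over a group, which is 0.0571 CPM with DMSO and 0.0471 CPM with NCD, for counting error only. Expression of ABCB1 was therefore not detectable at this depth in either group, and no fold change can be given. RUNDC3B, which overlaps its span on the opposite strand without sharing exon bases, had 4 to 19 counts in a library.

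ABCG2 (ENSG00000118777, chromosome 4, 88090264 to 88231322, minus strand), a short transporter that works as a dimer and exports many anticancer drugs, gave 65, 72 and 73 counts under DMSO and 155, 133 and 165 under NCD. Every NCD library lay above every DMSO library. In CPM the level rose from 3.998 ± 0.0784 (SD, n = 3) to 7.12 ± 0.503 (SD, n = 3). The change was 0.83 ± 0.13 on the log2 scale (± standard error; adjusted p = 0.000348 by edgeR), short of the fold threshold. With library totals in place of TMM scaling it was 1.03 and was called, a setting under which the median over all tested genes shifted upward by 0.20 (log2). The 95% interval of the main value, 0.54 to 1.12, includes the threshold.

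ABCC1 (ENSG00000103222, chromosome 16, 15949577 to 16143074, plus strand) encodes multidrug resistance protein 1, which exports glutathione conjugates and many natural-product drugs. The DMSO libraries held 688, 815 and 776 counts of the gene, and the NCD libraries 171, 145 and 164. The NCD libraries were within a narrow band of 7.47 to 7.65 CPM, far below the DMSO libraries at 41.5 to 46.1 CPM. On the log2 scale the difference was -2.52 ± 0.08 (± standard error; adjusted p = 3.41e-08 by edgeR). No alternative setting or left-out library brought it outside -2.58 to -2.33.

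ABCC4 (ENSG00000125257, chromosome 13, 95019829 to 95301475, minus strand), which exports cyclic nucleotides, prostaglandins and nucleoside analogues, showed the largest fall among the 9 tested members. DMSO libraries held 1124, 1300 and 1281.01 counts, and NCD libraries 122, 68 and 107. The groups lay far apart, and NCD replicate 2 was the lowest. The mean fell from 70.5 ± 2.92 to 4.61 ± 0.963 CPM (SD, n = 3 each), which is -3.92 ± 0.13 on the log2 scale (± standard error; adjusted p = 3.69e-08 by edgeR). This value ranged from -4.07 to -3.73 over the alternatives.

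ABCC5 (ENSG00000114770, chromosome 3, 183919934 to 184018015, minus strand) is the relative of ABCC4 that also exports cyclic nucleotides. Its counts, 639, 863 and 767 for DMSO and 850, 729 and 934 for NCD, gave groups that overlapped in CPM. The difference of -0.13 ± 0.11 on the log2 scale (± standard error; adjusted p = 0.301 by edgeR) had a 95% interval from -0.37 to 0.11, so a fall of the size seen for ABCC4 lay far outside it. The sign of this small value turned with library totals, to 0.069. The counts of ABCC4 stood at 1.55 ± 0.0875 (SD, n = 3) times those of ABCB10 with DMSO and at 0.107 ± 0.0230 (SD, n = 3) times with NCD, a ratio within each library that no scaling changes. For ABCC5 the same ratio was 0.946 ± 0.125 with DMSO and 0.916 ± 0.0786 with NCD (SD, n = 3 each).

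ABCC2 (ENSG00000023839, chromosome 10, 99782640 to 99852594, plus strand), the exporter of bilirubin glucuronide in the liver, gave only 13, 46 and 45 counts in DMSO libraries and 18, 13 and 26 in NCD libraries. DMSO replicate 1 lay among the NCD libraries, at 0.783 CPM against 0.673 to 1.21 CPM. The difference was -1.13 ± 0.44 on the log2 scale (± standard error; adjusted p = 0.0469 by edgeR), just past both thresholds. The call was lost in 7 of 15 alternatives, for example without DMSO replicate 2 (-0.88, adjusted p = 0.157 by edgeR). Without DMSO replicate 1 the log2 fold change was -1.52. An exact two-sided permutation test of the 3 against 3 CPM values gave p = 0.3. The smallest p this exact permutation test allows is 0.1, which ABCC1, ABCC4, ABCC10, ABCG2, ABCA1 and ABCB10 reached.

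ABCC3 (ENSG00000108846, chromosome 17, 50634777 to 50692252, plus strand), which exports glucuronide conjugates toward the blood, gave 145, 215 and 216 counts under DMSO and 251, 220 and 253 under NCD. Only DMSO replicate 1 lay apart from the rest, at 8.74 CPM against 10.97 to 12.2 CPM in the other 5 libraries. The log2 fold change was 0.06 (95% interval -0.25 to 0.37, adjusted p = 0.717 by edgeR). It turned to -0.10 without DMSO replicate 1, again without passing the test.

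ABCC10 (ENSG00000124574, chromosome 6, 43427366 to 43450430, plus strand), a pump of taxanes and other natural products, gave 157, 206 and 183 counts under DMSO and 436.7, 358 and 357.1 under NCD. All NCD values lay above all DMSO values, with means of 10.4 ± 1.14 and 18.1 ± 1.28 CPM (SD, n = 3 each). This was 0.80 ± 0.11 on the log2 scale (± standard error; adjusted p = 0.000182 by edgeR), below the fold threshold, and 0.99 with library totals. The gene shares 79 bases of exon with DLK2 on the opposite strand, which is 0.977% of the exon bases of ABCC10. DLK2 rose from 3.42 ± 0.248 to 12.3 ± 1.90 CPM (SD, n = 3 each), with a log2 fold change of 1.85 (adjusted p = 5.53e-06 by edgeR). Whether reads were counted by strand is not given in the sources used here, and how many reads the overlap holds was not tested.

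ABCA1 (ENSG00000165029, chromosome 9, 104781002 to 104928237, minus strand), the cholesterol exporter, gave 67, 90 and 93 counts under DMSO and 26, 24 and 20 under NCD. The groups were well apart, at 4.04 to 5.10 CPM and at 0.933 to 1.24 CPM. The difference was -2.10 ± 0.20 on the log2 scale (± standard error; adjusted p = 1.69e-05 by edgeR), and ABCA1 was called in all 15 alternatives.

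ABCB10 (ENSG00000135776, chromosome 1, 229516582 to 229558695, minus strand), the mitochondrial member, gave 776, 804 and 814 counts under DMSO and 976, 838 and 928 under NCD. After scaling, the NCD libraries sat just below the DMSO libraries, at 42.7 to 43.4 CPM against 44.6 to 46.8 CPM. The log2 fold change was -0.08 (95% interval -0.23 to 0.06, adjusted p = 0.274 by edgeR), and with library totals it was 0.12. Its 3 pseudogenes ABCB10P1, ABCB10P3 and ABCB10P4 had no count in any library.

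Levels of different genes were compared as CPM per kb of exon, using all annotated exons of a gene. With DMSO the order was ABCB10 (10.7), ABCC4 (8.17), ABCC1 (5.73), ABCC5 (3.77), ABCC10 (1.28), ABCC3 (1.13), ABCG2 (0.793), ABCA1 (0.418) and ABCC2 (0.249), with ABCB1 at 0. Only ABCC10 and ABCC3 overlapped in range with their neighbour in this order. With NCD it was ABCB10 (10.1), ABCC5 (3.45), ABCC10 (2.24), ABCG2 (1.41), ABCC3 (1.18), ABCC1 (0.995), ABCC4 (0.534), ABCC2 (0.114) and ABCA1 (0.0972), and only ABCC2 and ABCA1 overlapped. ABCC4 thus went from the second to the seventh place, and ABCC1 from the third to the sixth. When the longest transcript was used as length, ABCC5 stood above ABCC1 with DMSO, at 7.28 against 6.58 CPM per kb, and ABCC3 stood above ABCG2 with NCD, at 1.99 against 1.59 CPM per kb. Summed over the 10 members, transcript fell from 32.3 ± 1.46 to 20.2 ± 0.399 CPM per kb (SD, n = 3 each), without overlap. ABCC4 and ABCC1 made up 25.3% ± 0.152 and 17.7% ± 0.209 of this sum with DMSO, and 2.65% ± 0.544 and 4.94% ± 0.0385 with NCD (SD, n = 3 each). The share of ABCB10 went from 33.3% ± 1.99 to 50.3% ± 0.910, that of ABCG2 from 2.46% ± 0.0644 to 6.997% ± 0.354 and that of ABCC10 from 3.97% ± 0.252 to 11.1% ± 0.992 (SD, n = 3 each). In bulk RNA, a smaller number of cells that express a gene and less of its RNA per cell cannot be told apart.

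**Figure D2:**
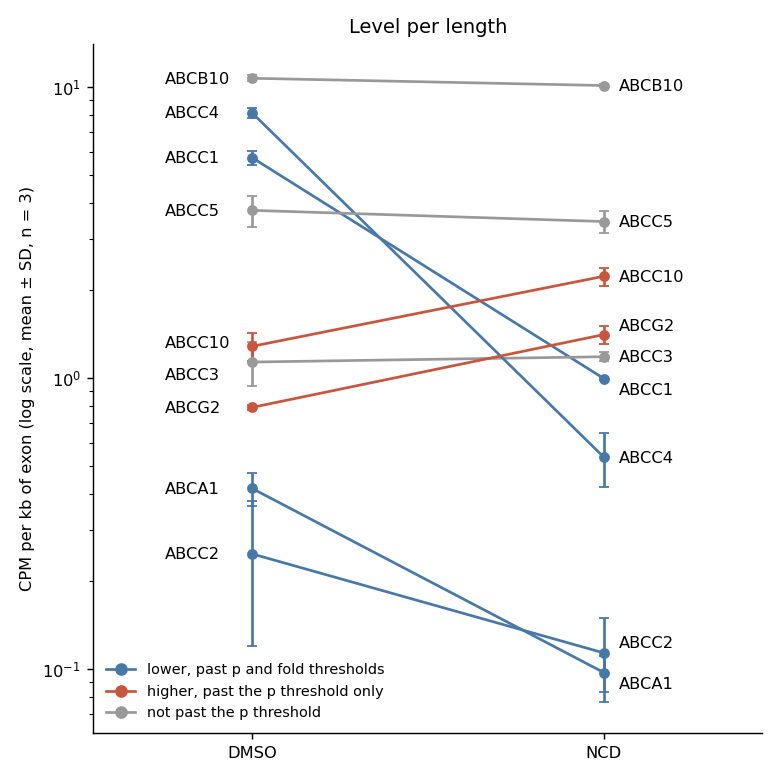
Mean level of the 9 detected transporters in CPM per kb of exon (log axis) with DMSO and with NCD, with bars for the SD of 3 libraries. Blue genes were called lower, red genes passed only the p threshold on the higher side and grey genes did not pass it. The lines of ABCC4 and ABCC1 cross those of ABCC10, ABCG2 and ABCC3, while ABCB10 stays at the top near 10.

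Gene span, from first to last annotated base, differed widely among the members. From short to long, ABCC10 covers 23.1 kb, ABCB10 42.1 kb, ABCC3 57.5 kb, ABCC2 69.95 kb, ABCC5 98.1 kb, ABCG2 141 kb, ABCA1 147 kb, ABCC1 193.5 kb, ABCB1 209.7 kb and ABCC4 282 kb. The 3 longest tested members were the 3 with the largest falls. Among all tested genes sorted into 10 groups of equal size by span, the median log2 fold change was 0.32 in the group of ABCC10 (20.1 to 28.99 kb), -0.03 in that of ABCB10 and ABCC3 (41.2 to 58.9 kb), -0.35 in that of ABCC2 (58.9 to 89.7 kb), -0.93 in that of ABCC5, ABCG2 and ABCA1 (89.7 to 153.1 kb) and -2.09 in that of ABCC1 and ABCC4 (over 153.1 kb). The middle 50% of genes lay between -3.05 and -1.24 in the longest group, which holds ABCC1 but not ABCC4 at -3.92. In the next group they lay between -1.40 and -0.33, with ABCA1 at -2.10 below this range and ABCC5 at -0.13 and ABCG2 at 0.83 above it. Called genes were lower for 79.2% of the longest group and 46.0% of the next, and higher for 1.63% and 2.93%.

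The span of ABCG2 rests on a distant start site. RefSeq lists 5 start windows for it, of which 1 begins the gene 141 kb from its end and 4 begin it 68.4 to 69.0 kb from its end. Counted from these 4, ABCG2 would fall in the group of 58.9 to 89.7 kb, with a median of -0.35, and its own change of 0.83 would still lie above the middle 50% of that group (-0.78 to 0.15). Which start these cells use cannot be read from counts per gene. The part of span in the change of each transporter was not tested.

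**Figure D3:**
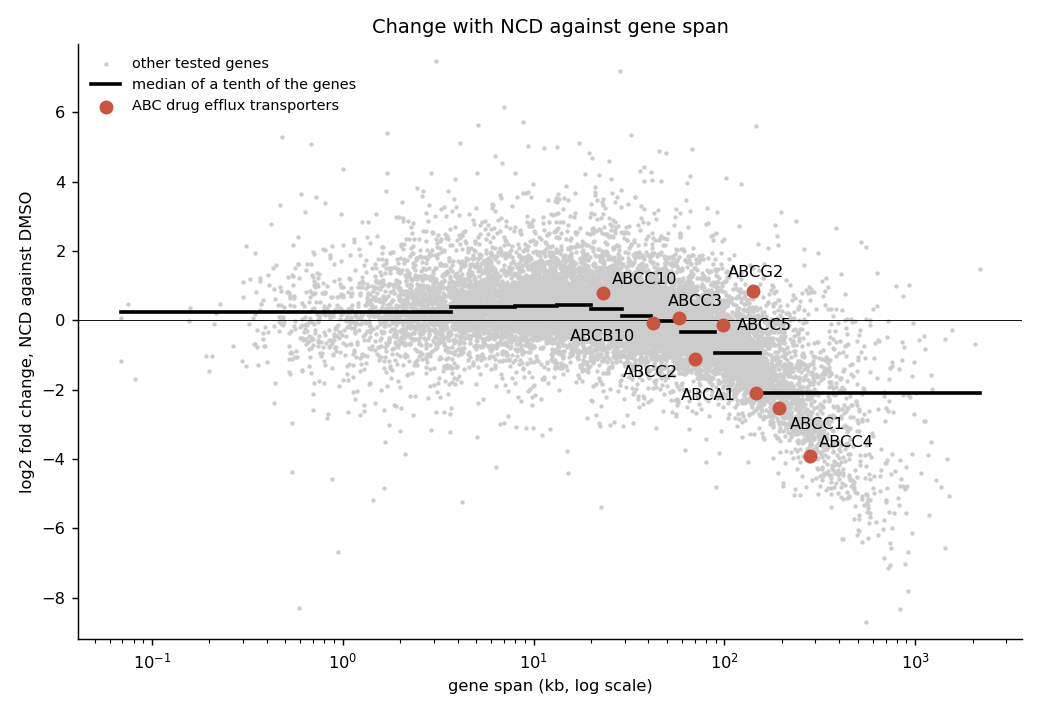
Log2 fold change with NCD (vertical axis) against gene span in kb (log axis) for all tested genes with a known span (grey), with the median of each of the 10 span groups (black) and the 9 tested transporters (red). ABCC4, ABCC1 and ABCA1 lie in the falling right-hand part of the cloud, and ABCG2 and ABCC5 lie within the cloud, above the median of their span group.

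Of the other 38 listed ABC family genes 21 were tested, with 5 called higher, 2 called lower and a median log2 fold change of 0.56. The share called, 33.3%, was near the 31.0% of all tested genes, with 23.8% higher against 13.5% and 9.52% lower against 17.5%. The difference between these genes and the drug pumps was not tested, and the 21 genes are shorter, with a median span of 25.5 kb against 98.1 kb for the 9 members. TAP1, which feeds peptides to MHC class I, rose with a log2 fold change of 1.997, and ABCB6, a transporter of porphyrins, with 1.75 (adjusted p = 4.18e-08 and 4.48e-07 by edgeR). ABCA7, a lipid transporter, rose by 1.44 on the log2 scale. ABCG4, a sterol transporter, and ABCA10 rose from under 1 CPM, with log2 fold changes of 2.36 and 2.29. On the lower side ABCD3, which carries fatty acids into peroxisomes and spans 100.2 kb, had -1.22 (adjusted p = 3.83e-06 by edgeR). Without a fold threshold 16 of the 21 changed, 13 higher and 3 lower, where 69.3% of all tested genes did. The other 17 family genes had too few counts to be tested, among them ABCG1, the partner of ABCA1 in cholesterol export, which gave 0, 1 and 9 counts under DMSO and 5, 9 and 10 under NCD.

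**Figure D4:**
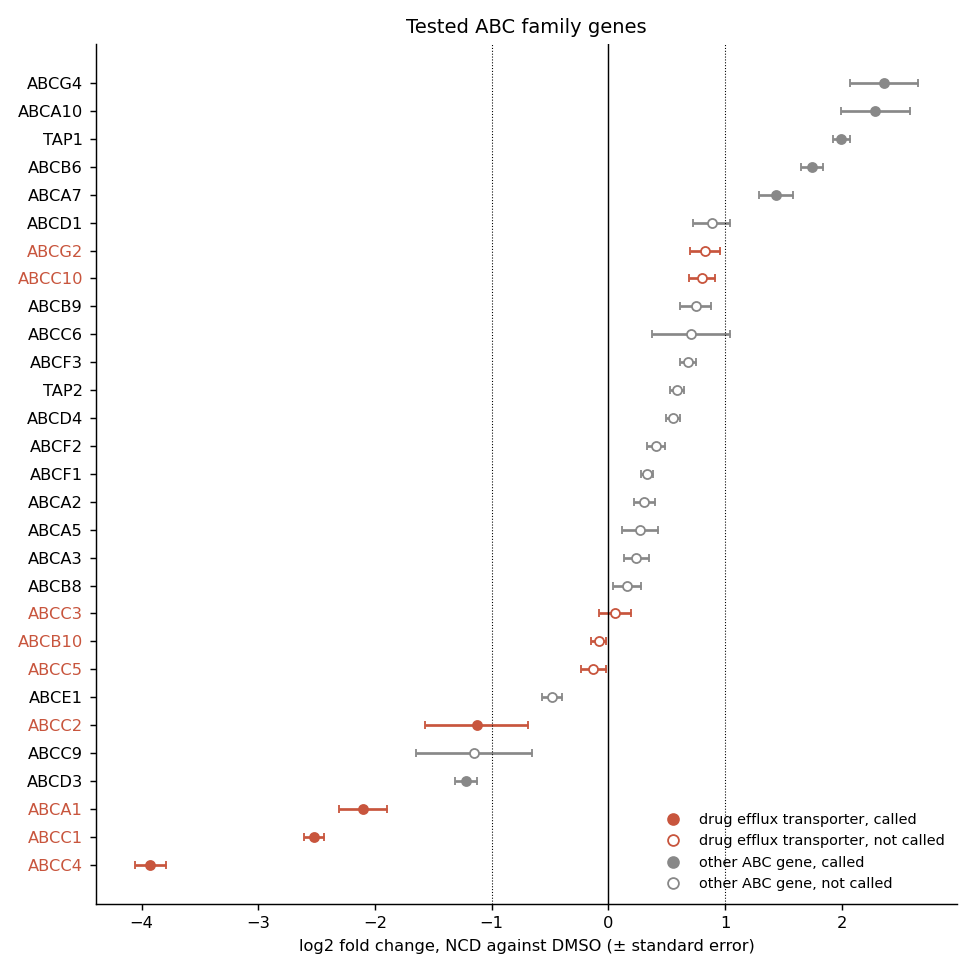
Log2 fold change with NCD and its standard error for tested ABC family genes (1 of them not shown), ordered by change, with the drug efflux transporters in red and other ABC genes in grey. Filled dots were called; the 3 lowest values are those of ABCC4, ABCC1 and ABCA1.

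Carriers of drugs and organic ions, most but not all of them known for uptake into cells, were examined as the counterpart of efflux. Of 36 listed genes 18 could be tested, and 7 were called, 2 higher and 5 lower, which is 38.9% against 31.0% of all tested genes. By p alone 7 of the 18 were higher and 8 lower, against 35.3% and 34.1% of all tested genes. SLCO1B3, an organic anion transporter best known from the liver, fell from 43.2 ± 1.83 to 6.61 ± 0.965 CPM (SD, n = 3 each), a log2 fold change of -2.71 (adjusted p = 9.35e-08 by edgeR). Its relatives SLCO4A1 and SLCO3A1 had log2 fold changes of -1.81 and -3.20, from 11.7 and 1.65 CPM with DMSO. Nucleoside carriers went both ways. SLC29A3 and SLC29A4, the second of which also moves organic cations, rose with 1.06 and 1.202, from 4.80 and 1.37 CPM with DMSO. SLC28A3 and SLC29A2, which lie outside the rule for named genes and were chosen after their values were seen, fell with -3.14 and -1.20 (adjusted p = 0.000299 and 5.49e-05 by edgeR). Their DMSO levels were 1.29 and 9.69 CPM. SLC29A1, chosen in the same way, stood higher, at 117 CPM with DMSO and 79.8 CPM with NCD. Its log2 fold change was -0.55 (adjusted p = 5.42e-05 by edgeR), short of the fold threshold. The median of the 18 was -0.12.

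Glutathione feeds export by the ABCC pumps, since several of them carry its conjugates. In the list of glutathione synthesis and conjugation 5 of 26 tested genes were called, all 5 higher, and the median was 0.37. This is 19.2% called higher against 13.5% of all tested genes, and 19.2% called in either direction against 31.0%. By p alone 14 of the 26 were higher and 4 lower, against 35.3% and 34.1% of all tested genes. The synthesis genes GCLC, GCLM and GSS were not called, with log2 fold changes of 0.71, 0.05 and 0.06, and only GCLC passed the p threshold. GSR and SLC7A11 were lower, with -0.66 and -0.75, short of the fold threshold. The called genes include the sulfotransferase gene SULT1A3. All of these lie outside the rule for named genes and were chosen after their values were seen. The median span of the 26 was 26.1 kb, and the span group of 20.1 to 28.99 kb had a median of 0.32. The part of span was not tested. CHAC1, which breaks down glutathione and is a known target of the integrated stress response, rose from 2.88 ± 0.362 to 38.6 ± 4.15 CPM (SD, n = 3 each), with a log2 fold change of 3.74 (adjusted p = 4.56e-08 by edgeR). The transferases GSTT2B and GSTA4 rose with log2 fold changes of 1.72 and 1.04, where the value of GSTT2B is uncertain because it has a near-identical copy, GSTT2, and how reads were split between them was not tested.

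Transcription factors that are known to act on ABC genes went both ways: of 29 tested, 4 were called higher and 3 lower, which is 24.1% against 31.0% of all tested genes, with a median of 0.03. By p alone 10 of the 29 were higher and 9 lower, against 35.3% and 34.1% of all tested genes. NFE2L2 (NRF2), a regulator of several ABCC genes, had 130 ± 16.3 CPM with DMSO and 129 ± 13.0 CPM with NCD (SD, n = 3 each), a log2 fold change of -0.02 (adjusted p = 0.895 by edgeR). AHR, the aryl hydrocarbon receptor, stood at 65.7 ± 7.68 and 65.9 ± 8.11 CPM (SD, n = 3 each; adjusted p = 0.969 by edgeR). In the GENCODE 29 annotation both genes span more than 150 kb, at 165 and 430 kb, and which start site these cells use was not tested. NR1I2, the pregnane X receptor that drives ABCB1 in liver and gut, had no count, as ABCB1 itself. SNAI1, a repressor of epithelial genes, rose with a log2 fold change of 2.25 and MAFG, a partner of NRF2, with 1.12. ZEB1, another repressor of epithelial genes, had -3.10 and HIF1A, the oxygen-regulated factor, -1.57. PPARG, a nuclear receptor known to act upstream of ABCA1, had -1.90, and ZEB1, HIF1A and PPARG were all called lower. SNAI1 and MAFG span 5.89 and 9.45 kb, and ZEB1, HIF1A and PPARG span 211, 52.75 and 147 kb. The part of span in these changes, and any link from PPARG to ABCA1, was not tested.

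ABCA1 is a textbook target of the liver X receptors. The receptor genes NR1H3 and NR1H2 were past the p threshold on the higher side, with log2 fold changes of 0.84 and 0.59 (adjusted p = 0.000271 and 6.72e-05 by edgeR). Of the list of cholesterol efflux and liver X receptor targets, 21 genes were tested, 4 were called higher and 3 lower, and the median was 0.29. The share called, 33.3%, was near the 31.0% of all tested genes. SMPDL3A and MYLIP, both known liver X receptor targets, rose with log2 fold changes of 2.30 and 1.23, opposite in direction to ABCA1, and APOC1, an apolipoprotein gene, rose with 1.505. These 3 genes span 20.7, 19.1 and 5.10 kb. The called falls in the list were those of NCEH1, a cholesterol ester hydrolase, with -1.99, SNTB1, a scaffold that binds ABCA1, with -3.19, and SCARB1, the receptor for high-density lipoprotein, with -1.07, from genes of 81.0, 278 and 106 kb. Receptor activity was not measured.

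**Figure D5:**
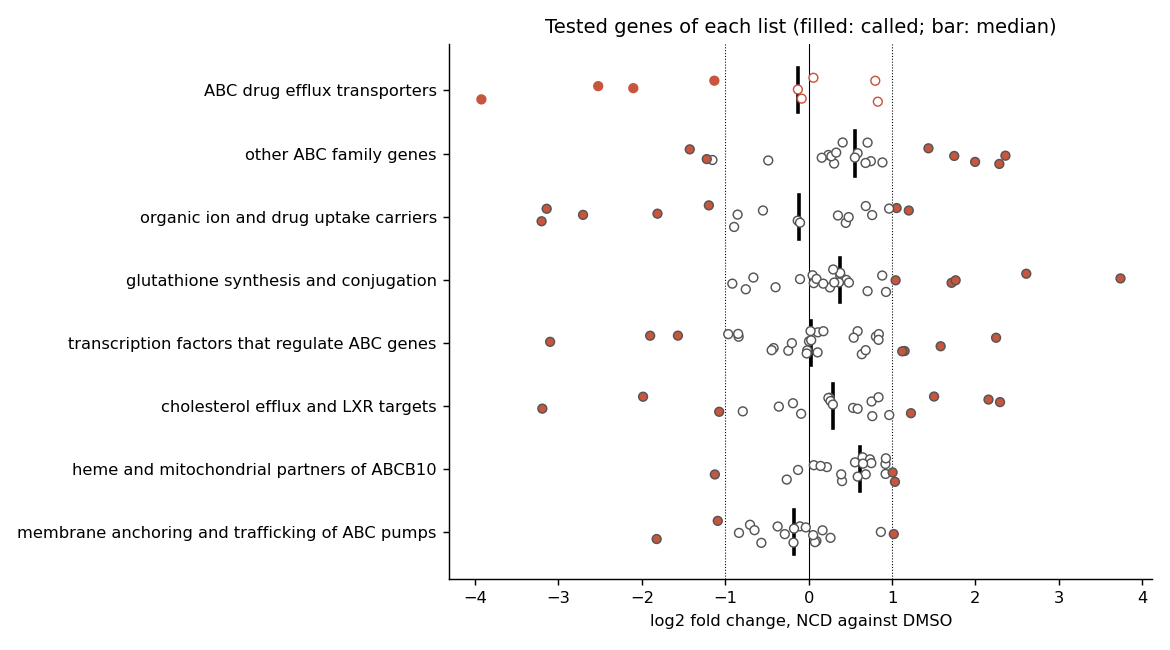
Log2 fold change with NCD of the tested genes of the transporters and of each related list (dots; filled where called), with the median of each list as a bar and dotted lines at -1 and 1. The transporters hold called genes only on the lower side, while the glutathione list holds them only on the higher side.

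The labelled cell line was checked against its markers. All 6 markers that the line should express were present, with summed levels of 6598 to 6917 CPM in DMSO libraries and 4205 to 4589 CPM in NCD libraries. VIM was highest, at 3056 ± 100.1 CPM with DMSO and 2638 ± 133 CPM with NCD (SD, n = 3 each). CD44 fell from 977 to 277 CPM, MSN from 753 to 213 CPM, AXL from 856 to 399 CPM and CAV1 from 713 to 399.8 CPM, with log2 fold changes of -1.82, -1.82, -1.10 and -0.83, and KRT18 rose with 0.27. The 5 hormone receptor and ERBB2 genes, which should be absent or low, summed to 42.0 to 44.7 CPM with DMSO and 67.1 to 71.9 CPM with NCD. Of these ESR1 and PGR reached at most 0.384 and 0.155 CPM, GATA3 stood at 6.12 and 7.31 CPM, and ERBB2 rose from 37.2 to 60.99 CPM and FOXA1 from 0.172 to 1.68 CPM (log2 fold changes 0.71 and 3.25, adjusted p = 1.92e-05 and 0.000926 by edgeR). CDH1 reached at most 0.207 CPM in any library. The 5 leukocyte markers summed to at most 1.005 CPM in a library. The 4 fibroblast markers summed to 2.38 to 3.73 CPM with DMSO and 12.8 to 14.8 CPM with NCD, nearly all of it COL1A1, while COL1A2 was at 0 in all libraries, and the 3 endothelial markers summed to at most 1.39 CPM. The 3 epithelial genes CDH1, ESRP1 and GRHL2 summed to 0.822 to 1.39 CPM with DMSO and 3.22 to 4.54 CPM with NCD. Nearly all of this was ESRP1, with means of 0.981 and 3.51 CPM (log2 fold change 1.85), while GRHL2 was at 0 in all libraries. The part of these shifts in the transporter values was not tested.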

How the data were processed

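The authors aligned reads to the human genome (GRCh38 per the labels) with HiSat2 and deposited expected counts per gene from RSEM, not normalized; versions, annotation release and strandedness are not given in the sources used here. The 25 stray text lines per file were skipped. Symbols came from a table of gene IDs (62666 of 63241 matched), spans and exons from GENCODE 29, whose genes hold at least 99.4% of each library's counts.

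Counts were rounded and tested with edgeR 4.0.16 in R 4.3.3 (filterByExpr, TMM, glmQLFit, glmQLFTest, Benjamini-Hochberg), and the fit was tested on simulated data. Standard errors are the absolute log2 fold change over the square root of F. The study used DESeq2, run here as an alternative (1.42.0), as was limma-voom (3.58.1). Exact tests used scipy 1.17.1. No pair of replicates was alike within sampling noise (chi-square per degree of freedom at least 2.05). Deviations from the group mean in DMSO and NCD libraries of the same number had correlations of 0.368, -0.332 and 0.015, with no common sign. Libraries of different number were not compared, so these values cannot decide whether the numbers mark pairs.

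The members and the lists were chosen with earlier results of these data known. Named genes are all members, the called ABC relatives with the smallest p (up to 5 each way), up to 3 each way in every other list, 5 regulators in any case, and the 3 genes closest in profile to the member with the largest fall; 2 genes that this rule names are not reported here.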

Additional observations from a re-analysis of the deposited data

How the results depend on the processing

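The falls of ABCC1, ABCC4 and ABCA1 kept their direction and their call in all 15 alternatives each, which changed the test, scaling, filter or pairing or left out 1 library, and the rise of ABCC10 kept its direction and adjusted p below 0.05 (at most 0.0106). With library totals 1 member was called higher, ABCG2 at 1.03, ABCC5 turned to 0.069 and ABCB10 to 0.12, and without a fold threshold 2 members counted as higher. Library totals called 2793 genes higher and 2181 lower, against 2067 and 2669 in the main test. ABCC2 lost its call with limma-voom (-0.995), library totals (-0.94) and ribosomal protein genes as reference (-1.17), and without each library ranged from -1.52 to -0.88. ABCC3 turned to -0.10 without DMSO replicate 1, with a range of -0.10 to 0.13. The cause was not tested beyond this. With the replicate block, 4 members were called. The block, which took the numbers as pairs although pairing was not established, changed no call of a member.

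Without a fold threshold, which admits smaller changes by construction, 16 of 21 other ABC genes counted, 13 of them higher. Among all tested genes 69.3% counted. The related lists held 15 of 18 tested genes (drug and ion carriers), 18 of 26 (glutathione) and 19 of 29 (transcription factors). They also held 17 of 21 (cholesterol efflux), 16 of 20 (heme) and 13 of 19 (anchoring). At least 10 counts in every library left 3 other ABC genes higher, since 18 were tested. With the longest transcript as length, levels per kb with DMSO were 6.58 for ABCC1, 1.91 for ABCC3, 11.4 for ABCC4, 7.28 for ABCC5, 2.04 for ABCC10, 0.893 for ABCG2 and 11.8 for ABCB10; with NCD they were 1.14 for ABCC1, 0.153 for ABCC2, 1.99 for ABCC3, 0.748 for ABCC4, 6.67 for ABCC5, 3.55 for ABCC10, 1.59 for ABCG2 and 11.2 for ABCB10. Depth limits ABCB1 and ABCC2.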

Other observations

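Of 20 genes of heme synthesis and mitochondrial partners of ABCB10, 14 passed the p threshold on the higher side and 2 on the lower. Among all tested genes these shares were 35.3% and 34.1%. Only 3 of the 20 were called, against 31.0% of all tested genes. The median span of the 20 was 14.65 kb, and the span group of 13.24 to 20.07 kb had a median log2 fold change of 0.43. The part of span was not tested. SLC25A37 (mitoferrin-1), the iron importer that ABCB10 is known to stabilise, fell from 180 ± 17.7 to 82.5 ± 9.72 CPM (SD, n = 3 each; log2 fold change -1.12, adjusted p = 1.01e-05 by edgeR). Its relative SLC25A28 (mitoferrin-2) rose from 17.1 ± 0.355 to 35.1 ± 1.47 CPM (SD, n = 3 each; log2 fold change 1.04), and HMOX1, which degrades heme, rose with 1.01. With ABCB10 itself at -0.08, the 2 mitoferrin genes moved in opposite directions around it.

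Genes for anchoring and trafficking of ABC pumps held 3 called genes among 19 tested, 15.8% against 31.0% of all tested genes, with a median log2 fold change of -0.17. MSN (moesin), which ties membrane proteins to actin, fell from 753 ± 26.0 to 213 ± 6.48 CPM (SD, n = 3 each; log2 fold change -1.82, adjusted p = 3.11e-08 by edgeR). UBE2R2, a ubiquitin-conjugating enzyme, had -1.09, and the kinase gene PIM1 rose with 1.02. MSN, UBE2R2 and PIM1 span 153.6, 102.8 and 5.22 kb, and the part of span was not tested.

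The profiles closest to ABCC4 over the 6 libraries, by the root mean square difference of mean-centred log2 (CPM + 1) values, were those of OSBPL10 (0.058, log2 fold change -3.95), DDX10 (0.073, -4.07) and PTPRK (0.078, -4.21). All 3 lie in the group of the longest genes, as ABCC4 does. This measure picks genes with a fall of like size, so it does not test a link to span. The lower quartile of the log2 fold change was -3.05 in that group and -1.40 in the next.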
